A study of Mus musculus with 12 samples.

Results

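The 10 genes described here encode neutrophil granule and cytosol proteins and the parts of the granulocyte colony-stimulating factor (G-CSF) axis that act on neutrophils. They are S100a8, S100a9, Retnlg, Csf3, Csf3r, Padi4, Slpi, Lcn2, Mmp8 and Trem1, picked by gene name from a table of 21899 genes, in which each name occurred on 1 line. All 10 passed the filter on low counts that left 13638 genes for testing.

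The study asked how curcumin and swimming exercise, alone and together, act on a transplanted mouse breast tumour. RNA was sequenced from 12 libraries in 4 groups of 3. The tumours came from 4T1-LUC cells, a mouse mammary carcinoma line carrying luciferase, in BALB/c hosts that were 4 to 6 weeks old, and 0.2 mL of cell suspension was given under the skin. The combination group received 100 mg/kg curcumin in corn oil by gavage each afternoon, rested for 30 min and then swam for 30 min. The swimming group received corn oil with the same rest and the same 30 min of swimming. The curcumin group received 100 mg/kg curcumin in corn oil without swimming, and the control group received corn oil alone. In every group the carrier was therefore the same oil, given as 200 µL, and every host carried tumour cells of the same line. The protocol gives 30 mice in 5 groups of 5, numbers that do not add up. The labels do not say whether the libraries of a group came from separate animals or tumours, so the p-values below cover only how far these libraries spread, which may be technical. Swimming stands only in the sample titles and the protocol.

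S100A8 and S100A9 form calprotectin, a major protein complex of the neutrophil cytosol. Csf3 encodes G-CSF, which drives the bone marrow to make and release neutrophils and acts through the receptor encoded by Csf3r; 4T1 tumours are known for raising neutrophil numbers in their hosts through this factor. The granules of neutrophils are filled in order during maturation, the primary ones first, and several of these genes are also expressed by epithelial cells, among them Slpi, Lcn2 and the S100 pair.

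In the coordinates of the deposited table, whose genome build is stated in 2 ways in the sources, S100a8 (ENSMUSG00000056054) lay at chr3:90576285-90577342 on the plus strand and S100a9 (ENSMUSG00000056071) at chr3:90599939-90603028 on the minus strand. Retnlg (ENSMUSG00000022651) lay at chr16:48692984-48694859, plus strand, and Slpi (ENSMUSG00000017002) at chr2:164195990-164231015, minus strand. Csf3 (ENSMUSG00000038067) lay at chr11:98592089-98594455, plus strand, and Csf3r (ENSMUSG00000028859) at chr4:125918343-125938233, plus strand. Padi4 (ENSMUSG00000025330) lay at chr4:140473176-140501547, minus strand, and Lcn2 (ENSMUSG00000026822) at chr2:32274645-32278264, minus strand. Mmp8 (ENSMUSG00000005800) lay at chr9:7558457-7568486, plus strand, and Trem1 (ENSMUSG00000042265) at chr17:48539796-48553952, plus strand. These are whole-gene spans of exons and introns, and no other gene of the table overlapped any of them.

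The promoters of 6 genes are shown because these genes were lower in combination tumours than in swimming tumours by the test described further on and have an entry in the promoter table. Each run is 300 bases of the GRCm38.p6 reference from RefSeq, 5′ to 3′ on the gene's own strand, with 250 bases before and 50 after the annotated start. Capitals mark matches, on either strand, to 1 of 5 short motifs. The windows lie at chr3:90668821-90669120 (plus) for S100a8, chr3:90695672-90695971 (minus) for S100a9, chr16:48872358-48872657 (plus) for Retnlg, chr4:140774154-140774453 (minus) for Padi4, chr2:164356458-164356757 (minus) for Slpi and chr17:48232489-48232788 (plus) for Trem1.
S100a8: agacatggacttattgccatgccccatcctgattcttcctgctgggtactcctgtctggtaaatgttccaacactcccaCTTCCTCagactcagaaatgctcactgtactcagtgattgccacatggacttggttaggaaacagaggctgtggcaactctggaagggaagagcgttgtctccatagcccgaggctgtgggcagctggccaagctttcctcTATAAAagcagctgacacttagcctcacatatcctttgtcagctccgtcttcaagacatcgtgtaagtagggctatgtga
S100a9: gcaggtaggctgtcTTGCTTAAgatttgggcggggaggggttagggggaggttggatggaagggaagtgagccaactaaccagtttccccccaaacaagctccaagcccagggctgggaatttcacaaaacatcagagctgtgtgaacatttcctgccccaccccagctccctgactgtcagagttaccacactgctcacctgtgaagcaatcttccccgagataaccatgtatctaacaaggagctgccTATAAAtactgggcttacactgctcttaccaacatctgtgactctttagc
Retnlg: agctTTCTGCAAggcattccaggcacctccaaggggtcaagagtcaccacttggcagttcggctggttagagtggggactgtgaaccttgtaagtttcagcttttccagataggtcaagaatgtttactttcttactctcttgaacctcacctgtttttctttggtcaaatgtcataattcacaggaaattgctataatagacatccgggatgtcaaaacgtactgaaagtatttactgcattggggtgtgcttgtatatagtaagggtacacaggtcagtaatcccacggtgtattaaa
Padi4: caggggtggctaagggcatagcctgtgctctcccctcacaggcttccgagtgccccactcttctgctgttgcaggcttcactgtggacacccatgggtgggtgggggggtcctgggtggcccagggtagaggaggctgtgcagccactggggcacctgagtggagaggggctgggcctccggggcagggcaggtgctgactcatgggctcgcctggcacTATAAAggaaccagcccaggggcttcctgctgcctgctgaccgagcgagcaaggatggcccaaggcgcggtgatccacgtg
Slpi: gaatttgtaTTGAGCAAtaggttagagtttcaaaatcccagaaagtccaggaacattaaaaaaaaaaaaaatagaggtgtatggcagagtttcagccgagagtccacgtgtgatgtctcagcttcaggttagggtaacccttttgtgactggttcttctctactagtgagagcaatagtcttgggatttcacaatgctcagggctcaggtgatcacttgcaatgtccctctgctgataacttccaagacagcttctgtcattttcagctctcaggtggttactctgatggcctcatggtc
Trem1: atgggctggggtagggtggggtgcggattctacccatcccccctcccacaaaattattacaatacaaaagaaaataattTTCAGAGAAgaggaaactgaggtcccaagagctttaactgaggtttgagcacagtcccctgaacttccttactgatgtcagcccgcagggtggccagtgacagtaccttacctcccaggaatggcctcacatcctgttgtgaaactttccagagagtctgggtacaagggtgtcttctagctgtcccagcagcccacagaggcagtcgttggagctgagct

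The motifs searched on both strands were TTGCNNAA for C/EBP factors, GAGGAAG for PU.1, TTCNNNGAA for STAT factors, GGGA and CC with 4 bases of any kind between them for NF-kB and TATAAA for the TATA box. Among the 9 genes with a window, the C/EBP letters occurred in 5 (S100a9, Retnlg, Slpi, Lcn2 and Mmp8), against 10.8% of all 32851 promoter windows. The PU.1 letters occurred in 4 of 9 (S100a8, Csf3r, Lcn2 and Mmp8), against 13.63% of windows, and the TATA letters in 4 of 9 (S100a8, S100a9, Padi4 and Mmp8), against 13.62%. The NF-kB letters occurred only in the window of Csf3r among the 9, against 20.73% of all windows, and the STAT letters only in that of Trem1, against 8.3%. These matches describe the letters in the window and show no binding.

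Library totals ran between 15069348 and 17278826 reads counted to genes. In the values below, CPM is the usual measure of counts per library total, with totals scaled by TMM to correct for differences in composition. On the length-corrected FPKM scale, the only scale used here to compare levels between genes, the mean over all 12 libraries was highest for Padi4 at 75.9 FPKM, followed by S100a9 at 50.7, Lcn2 at 38.7 and Csf3 at 29.9 FPKM. Slpi averaged 12.6 FPKM, Csf3r 11.7 and S100a8 10.2 FPKM, and the lowest were Trem1 at 7.42, Retnlg at 5.32 and Mmp8 at 3.33 FPKM. Ly6g, the usual surface marker of mouse neutrophils, reached at most 0.687 FPKM in any library, and the primary-granule genes Mpo and Elane at most 0.327 and 0.472 FPKM. Ly6g had 1 count over the 3 combination libraries, 23 over the swimming, 10 over the curcumin and 18 over the control libraries. By contrast the receptor gene Cxcr2 had 1.10 to 5.39 FPKM. Ly6g, Mpo and Elane were thus at or near 0 in these bulk libraries while Padi4, Lcn2 and Csf3 were well above them. Other neutrophil genes varied. Ngp had 0.509 to 12.4 FPKM, Il1r2 2.53 to 19.6 FPKM and Stfa2l1 0.602 to 12.4 FPKM, but Cxcr1 at most 0.233 FPKM. The cells that made each transcript were not identified by these data.

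In combination tumours, S100a8, Retnlg, Padi4 and Slpi fell relative to control tumours, and these with S100a9, Csf3 and Trem1 fell relative to swimming tumours. Slpi also fell relative to curcumin tumours. Trem1 was the only one of the 10 to rise in any comparison, in swimming tumours relative to control tumours. In control tumours, 1 of the 3 libraries held far more of most of the granule transcripts than the other 2. The spread was estimated over all groups together, so the standard errors of those genes were wide also in comparisons that do not involve control.

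**Figure D1:**
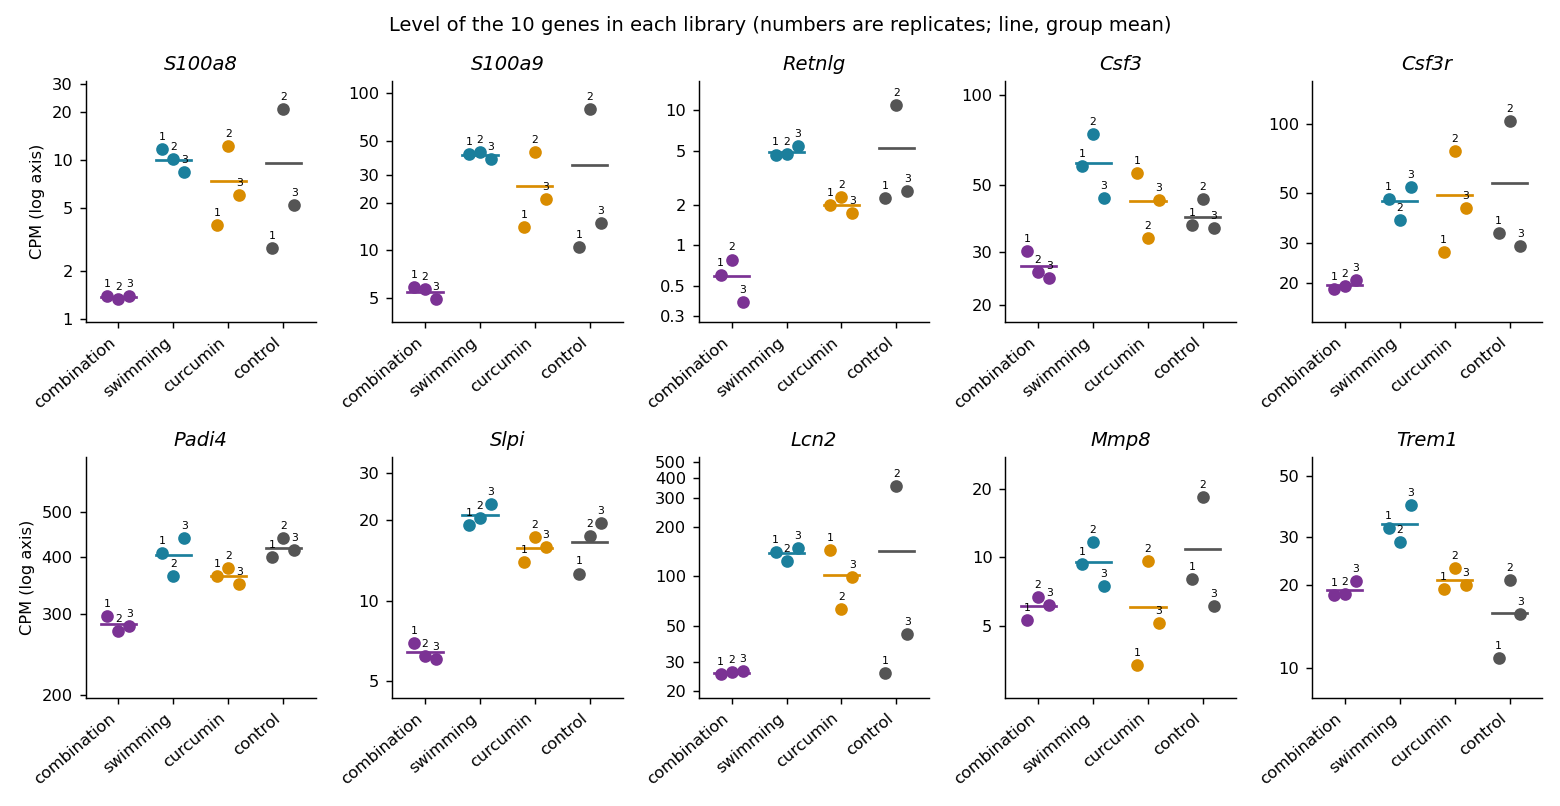
CPM (log axis) of each of the 10 genes in each of the 12 libraries, with 1 panel a gene; points are libraries, numbered by replicate, and lines are group means. Combination libraries lie close together and below the other groups for most genes, and control 2 stands above controls 1 and 3 for Lcn2, S100a9 and S100a8.

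S100a8 had 1.39, 1.33 and 1.39 CPM in combination tumours, 11.7, 10.1 and 8.40 CPM in swimming tumours, 3.92, 12.2 and 6.04 CPM in curcumin tumours and 2.79, 20.9 and 5.19 CPM in control tumours. Every combination library was below every library of the other 3 groups, while swimming and curcumin libraries lay inside the range of the controls. The combination values rest on 22 or 23 counts each, with exact Poisson 95% intervals from 13.8 to 34.5 counts that cover counting error only. By edgeR's quasi-likelihood test the log2 fold change of S100a8 was -2.80 ± 0.70 (SE) against control, with a Benjamini-Hochberg adjusted p of 0.048 over 13638 genes, and -2.87 ± 0.70 against swimming, with an adjusted p of 0.039. Against curcumin it was -2.42 ± 0.70, with an adjusted p of 0.116, which missed the threshold of 0.05. Without the filter on low counts the calls of S100a8 were lost against control (edgeR adjusted p = 0.0726) and against swimming (0.0617). Its call against control was also lost when only the groups compared were fitted (edgeR adjusted p = 0.124) and with a replicate block (0.063). In bulk tissue such as this, fewer cells of a type and less RNA per cell cannot be told apart.

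S100a9, the partner of S100a8, had 5.81, 5.69 and 4.87 CPM in combination tumours and 40.8, 42.0 and 38.2 CPM in swimming tumours. Curcumin tumours had 14.1, 42.2 and 21.1 CPM and control tumours 10.4, 79.7 and 15 CPM. The groups stood as for S100a8, with combination libraries below all others and the control libraries spread widest. The log2 fold change was -2.88 ± 0.73 against swimming (edgeR adjusted p = 0.045, and 0.0791 without the filter on low counts) and missed the threshold against control at -2.68 ± 0.73 (edgeR adjusted p = 0.059). The ratio of S100a9 to S100a8 in FPKM stayed between 3.84 and 6.04 in all 12 libraries, with a median of 4.88, so the pair moved nearly in proportion from library to library.

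Retnlg encodes resistin-like gamma, a small secreted protein made by mature mouse neutrophils and their marrow precursors. It had 0.606, 0.787 and 0.379 CPM in combination tumours, 4.69, 4.69 and 5.39 CPM in swimming tumours, 1.99, 2.29 and 1.74 CPM in curcumin tumours and 2.24, 10.9 and 2.51 CPM in control tumours. Combination libraries were below all others, and curcumin libraries were below all swimming libraries. The combination counts were 10, 13 and 6 reads, with exact Poisson 95% intervals reaching from 2.20 to 22.2 counts. The log2 fold change of Retnlg was -3.12 ± 0.58 against control (edgeR adjusted p = 0.0195) and -3.04 ± 0.59 against swimming (edgeR adjusted p = 0.0166). The call of Retnlg against control was lost when only the groups compared were fitted (edgeR adjusted p = 0.092). Against curcumin the difference of -1.75 ± 0.60 was not called (edgeR adjusted p = 0.16). The other resistin family genes on the list, 3 in all, were too low to be tested.

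Slpi encodes secretory leukocyte protease inhibitor, which inhibits neutrophil elastase and is made by neutrophils and epithelia. Its libraries read 6.96, 6.24 and 6.07 CPM in combination tumours, 19.2, 20.4 and 23.1 CPM in swimming tumours, 13.99, 17.3 and 15.9 CPM in curcumin tumours and 12.7, 17.5 and 19.5 CPM in control tumours. The spread within each group was small, control 2 did not stand apart, and every combination library was below every library of the other groups. The log2 fold change of Slpi was -1.36 ± 0.17 against control (edgeR adjusted p = 0.0058), -1.70 ± 0.17 against swimming (0.00098) and -1.29 ± 0.17 against curcumin (0.011). Slpi was also the only one of the 10 called in the interaction, which asks whether the combination differs from the sum of the separate effects on the log2 scale: the value was -1.63 ± 0.23 (edgeR adjusted p = 0.0216), where 0.088% of the genes tested were called negative. Swimming tumours were above all curcumin tumours for Slpi, by 0.41 ± 0.16 on the log2 scale, which did not pass the test (edgeR adjusted p = 0.17).

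Lcn2 encodes neutrophil gelatinase-associated lipocalin, which binds bacterial siderophores. It had 25.4, 26.0 and 26.4 CPM in combination tumours and 142, 124 and 148 CPM in swimming tumours. Curcumin tumours had 144, 63.2 and 99.1 CPM, and control tumours 25.8, 357 and 44.8 CPM. Combination libraries were below all swimming and all curcumin libraries but overlapped control 1, and control 2 held 10.1 times the mean of controls 1 and 3. None of the comparisons of Lcn2 passed the test: the log2 fold change was -2.41 ± 0.83 against swimming (edgeR adjusted p = 0.1002), -1.98 ± 0.82 against curcumin (0.25) and -2.46 ± 0.83 against control (0.105). Without control 2, the value against control was -0.44. Lcn2 in swimming against control was -0.05 with all libraries and 1.97 without control 2, with an edgeR adjusted p of 0.0183.

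Mmp8 encodes neutrophil collagenase, stored in the secondary granules. Its libraries had 5.33, 6.72 and 6.195 CPM in combination tumours, 9.37, 11.6 and 7.46 CPM in swimming tumours, 3.38, 9.67 and 5.14 CPM in curcumin tumours and 8.06, 18.4 and 6.13 CPM in control tumours. Only swimming libraries were separate from combination libraries. No comparison of Mmp8 was called, with a log2 fold change of -0.64 ± 0.43 against swimming (edgeR adjusted p = 0.35) and -0.84 ± 0.43 against control (edgeR adjusted p = 0.23) for the combination.

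Csf3, the G-CSF gene, had 30.3, 25.7 and 24.5 CPM in combination tumours, 57.9, 74.1 and 45.4 CPM in swimming tumours, 54.8, 33.5 and 44.7 CPM in curcumin tumours and 37.0, 44.8 and 36.0 CPM in control tumours. The combination libraries were lowest throughout, and the swimming libraries were above every control library. The log2 fold change in combination tumours was -1.14 ± 0.20 against swimming (edgeR adjusted p = 0.0125), -0.72 ± 0.20 against curcumin (0.098) and -0.55 ± 0.20 against control (0.11). Csf3 in swimming tumours was 0.59 ± 0.20 on the log2 scale against control, which missed the threshold (edgeR adjusted p = 0.23).

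Csf3r, the receptor, had 18.9, 19.6 and 20.6 CPM in combination tumours, 47.1, 38 and 53.2 CPM in swimming tumours, 27.4, 76.1 and 42.9 CPM in curcumin tumours and 33.4, 103 and 29.3 CPM in control tumours. Combination libraries were below all 9 others, and control 2 and curcumin 2 were the 2 highest. No comparison of Csf3r passed the test: the log2 fold change was -1.23 ± 0.48 against swimming (edgeR adjusted p = 0.127), -1.31 ± 0.48 against curcumin (0.19) and -1.49 ± 0.48 against control (0.087). Ligand and receptor were therefore both lowest in combination tumours, with a call for the ligand in 1 comparison.

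Padi4 encodes peptidylarginine deiminase 4, which citrullinates histones and is needed for neutrophil extracellular traps. It had 297, 276 and 282 CPM in combination tumours, 408, 363 and 439 CPM in swimming tumours, 364, 378 and 348 CPM in curcumin tumours and 398, 438 and 413 CPM in control tumours. Combination libraries were below all others and curcumin libraries were below all controls. The log2 fold change in combination tumours was -0.55 ± 0.08 against control (edgeR adjusted p = 0.0112) and -0.50 ± 0.08 against swimming (edgeR adjusted p = 0.0113), the smallest fold among the calls of these 10 genes. Against curcumin the value was -0.35 ± 0.08 (edgeR adjusted p = 0.069), and curcumin against control -0.20 ± 0.08 (edgeR adjusted p = 0.43).

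Trem1 encodes a receptor that amplifies inflammatory signalling in neutrophils and monocytes. It had 18.4, 18.5 and 20.7 CPM in combination tumours, 32.3, 28.6 and 39.1 CPM in swimming tumours, 19.4, 23.1 and 20.1 CPM in curcumin tumours and 10.9, 20.9 and 15.7 CPM in control tumours. All swimming libraries were above every other library, while combination, curcumin and control libraries overlapped. Swimming tumours had 1.07 ± 0.20 higher Trem1 on the log2 scale than control (edgeR adjusted p = 0.041), and combination tumours -0.80 ± 0.19 relative to swimming (edgeR adjusted p = 0.033). Its call against control was lost when the 2 groups were fitted alone (adjusted p = 0.55), with a replicate block (0.074), with the combination libraries summed into 1 sample (0.17) and in 10 of the 12 fits without 1 library, kept without swimming 2 and without control 2. Trem1 was the only member whose mean was lowest in control tumours.

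Across the whole set, 4 of 10 genes were called lower in combination against control tumours, where 2.43% of the 13638 genes tested were, and 7 of 10 had all combination libraries below all control libraries, against 15.8% of genes. Against swimming tumours 7 of 10 were called lower, with a background of 3.15% of genes, and all 10 had no overlap, against 20.2%. Against curcumin tumours 1 of 10 was called lower, with a background of 0.491%, and 8 of 10 had no overlap, against 18.5%. The median log2 fold change of the 10 in combination tumours was -1.43 against control, -1.46 against swimming and -1.30 against curcumin, where the median over all genes tested was -0.02, -0.00491 and -0.00728. These comparisons share the combination libraries, and the comparisons with control share the control libraries, so they are not separate evidence. The 10 genes were also chosen with earlier results of these data known, and some of them moved together. Their shares beside the background are therefore a description and not a test of the set.

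The calls differed in how far they rested on single libraries. Without 1 library at a time, the calls of the combination against control were lost in 10 of 12 fits for S100a8 (adjusted p 0.0103 to 0.17 over the 12 edgeR fits, kept without curcumin 2 and without control 1), in the 3 fits without a combination library for Retnlg and Padi4, and without combination 3 for Slpi (0.05005). Against swimming the call of Slpi held in all 12 fits (edgeR adjusted p up to 0.0138), and those of Csf3 and Padi4 were lost without combination 2 or 3. The others against swimming were lost without any 1 combination library and without swimming 1 or 3. S100a8 and S100a9 were lost there also without swimming 2 or curcumin 3, S100a9 without curcumin 1 and Trem1 without curcumin 3. Slpi against curcumin was lost without curcumin 2 or any combination library (highest edgeR adjusted p 0.0926), and its interaction also without curcumin 3 or swimming 1 (highest 0.106). With the combination libraries summed into 1 sample no call remained, the highest adjusted p of Slpi being 0.94 against curcumin. No called value changed direction in these fits.

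**Figure D2:**
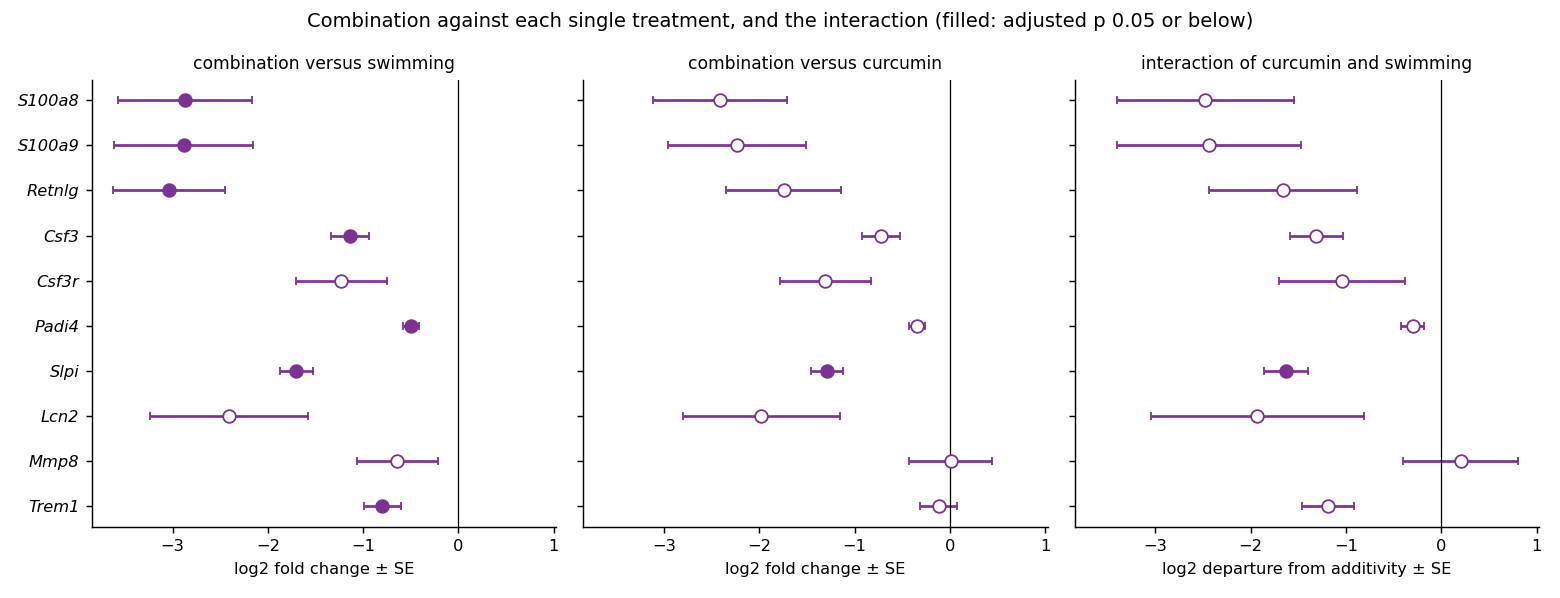
Log2 fold change of each of the 10 genes, with standard error bars, for combination against swimming, combination against curcumin and the interaction of both treatments; filled points passed an adjusted p of 0.05. Slpi is filled in all 3 panels, and Mmp8 lies at 0.01 against curcumin.

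The single treatments gave few calls against control. In curcumin tumours 0 of 10 genes were called, as 0 of 13638 genes were by edgeR (1490 genes had an unadjusted p under 0.05, and DESeq2 called 87 genes), and the only gene of the 10 whose libraries did not overlap the controls was Padi4, against 7.22% of genes lower in that sense. In swimming tumours 1 of 10 was called, Trem1, with a background of 0.154% of genes called higher, and 2 (Csf3 and Trem1) were above all controls, against 5.83% of genes. The median log2 fold change of the 10 was 0.01 in swimming and -0.29 in curcumin tumours against control. Swimming against curcumin gave 0 calls among the 10, with a background of 1.78% called in either direction, while Retnlg, Slpi and Trem1 had no overlap and were higher in swimming tumours, against 15.5% of genes. Retnlg was 1.29 ± 0.52 higher on the log2 scale in swimming tumours (edgeR adjusted p = 0.18) and Trem1 0.68 ± 0.19 (edgeR adjusted p = 0.082).

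**Figure D3:**
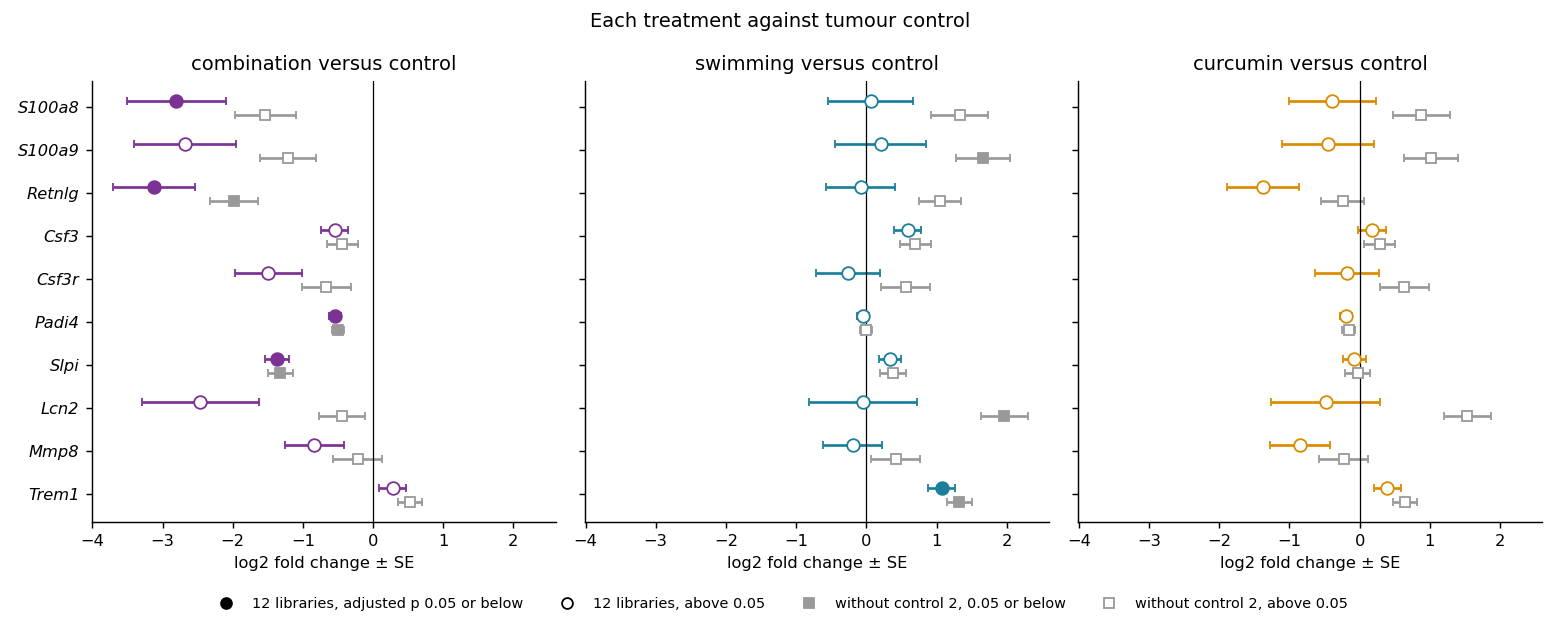
Log2 fold change of each of the 10 genes against control, with standard error bars, in combination, swimming and curcumin tumours; circles are fits of all 12 libraries, grey squares fits without control 2, and filled symbols passed an adjusted p of 0.05. Filled circles are S100a8, Retnlg, Padi4 and Slpi for the combination, Trem1 for swimming and none for curcumin, and the squares of S100a8, S100a9 and Lcn2 lie to the right of their circles in all 3 panels.

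Control 2 was the highest of the 12 libraries for 6 of the 10 genes. Against the mean of controls 1 and 3 it held 6.27 times as much S100a9, 5.24 times S100a8, 4.59 times Retnlg, 3.29 times Csf3r and 2.60 times Mmp8, but 1.23 times Csf3, 1.09 times Slpi and 1.08 times Padi4. Without it, 3 of 10 genes were called lower in the combination against control, with 0.97% of the 13820 genes then tested. Against swimming 9 of 10 were called lower, with 9.32% of genes, and against curcumin 7 of 10, with 2.81%. The interaction was called negative for 7 of 10, with 1.83% of genes, where only Slpi was called with all libraries. Control 2 was singled out by its levels of these same genes, and leaving it out lowers their control means. The calls in the fit without it are therefore a description and not separate support. The standard error of S100a8 in combination against curcumin was 0.40 in that fit and 0.70 with all libraries. In that fit the interaction was -3.75 for S100a8 (edgeR adjusted p = 0.0049), -3.90 for S100a9 (0.0063), -2.79 for Retnlg (0.0048), -1.42 for Csf3 (0.0292), -3.95 for Lcn2 (0.0036) and -1.44 for Trem1 (0.0043). S100a8 in combination against control was -1.53 without control 2 (edgeR adjusted p = 0.082). Swimming against control then had 3 of 10 called higher, with 2.35% of genes, among them Lcn2 and S100a9 at 1.67 (edgeR adjusted p = 0.0441).

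Other neutrophil genes were read from marker lists. In sum, 16 neutrophil surface and cytosol genes had 48.9 to 51.6 CPM in combination tumours and 101.5 to 116 CPM in swimming tumours. Curcumin tumours had 55.7 to 87.2 CPM and control tumours 24.9 to 129 CPM, with control 2 the highest. The median control library, at 43.7 CPM, was below every combination library. Of the 13 genes of this list that were tested, 2 fell in combination against swimming tumours, where 3.15% of all genes tested did, Asprv1 at -3.26 ± 0.89 (edgeR adjusted p = 0.048) and Stfa2l1, a stefin, at -2.81 ± 0.68 (0.033), and all 13 values were negative with a median of -1.02. Against control none of the 13 was called, with Asprv1 nearest at -3.03 (edgeR adjusted p = 0.064). Il1r2, the decoy receptor of interleukin 1, was 2.03 higher in swimming than in curcumin tumours (edgeR adjusted p = 0.023). The 8 secondary and tertiary granule genes, a sum led by Mmp9, came to 520 to 541 CPM in combination tumours, 335 to 411 CPM in swimming tumours, 581 to 642 CPM in curcumin tumours and 214 to 434 CPM in control tumours, so the combination libraries were above all swimming and control libraries. Of the 7 tested, none was called in any comparison: Ltf, which encodes lactoferrin, was -2.15 in combination against control (edgeR adjusted p = 0.075) while Mmp9 was 0.97 (0.14) and Hp, which encodes haptoglobin, 1.26 (0.12). In combination against control, 5 of those 7 were negative and 2 positive, with a median of -0.73. Of 5 primary granule genes only Prtn3 was high enough to test, at 0.46 in combination against control (edgeR adjusted p = 0.78).

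The neutrophil chemokine list held Cxcl1, Cxcl2, Cxcl3, Cxcl5, Ppbp, Cxcl12 and the receptor Cxcr4. It summed to 41.5 to 46.7 CPM in combination tumours and 109 to 152 CPM in swimming tumours. Curcumin tumours had 74.6 to 87.0 CPM and control tumours 43.0 to 157 CPM, again highest in control 2. The median control library, at 46.4 CPM, lay inside the range of the combination libraries. None of the 7 was called in any comparison with control; Cxcl1, a ligand of Cxcr2, was 1.36 in swimming against control (edgeR adjusted p = 0.38). Against swimming tumours, Cxcl3 was -3.22 (edgeR adjusted p = 0.060) and Cxcl1 -2.15 (edgeR adjusted p = 0.067) in combination tumours. Downstream of the G-CSF receptor, Ptpn6, a phosphatase that limits cytokine signalling, fell in combination against curcumin tumours at -0.56 (edgeR adjusted p = 0.037). Stat3 and Socs3, the main signalling factor and its inhibitor, were not called in combination against swimming or curcumin tumours. Of the 11 tested colony stimulating factors and inducers, Csf1 fell in combination against control tumours at -0.39 (edgeR adjusted p = 0.044). Csf2ra, a chain of the GM-CSF receptor, fell in combination tumours at -0.77 against curcumin (edgeR adjusted p = 0.030) and -0.56 against swimming (0.039). Of all genes tested, 2.43% were called lower against control, 0.491% against curcumin and 3.15% against swimming. Il17a had 0 counts in every library.

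Among the partners of the S100 proteins, 1 of 8 tested rose in combination against control tumours, where 2.43% of all genes tested did: S100a11 at 0.69 (edgeR adjusted p = 0.025), opposite in sign to S100a8 and S100a9. Of 7 genes of histone citrullination and extracellular traps, none was called against control in combination tumours. The NADPH oxidase subunits Ncf1 and Ncf4, of the same list, fell at -0.72 and -0.63 against curcumin (edgeR adjusted p = 0.025 for each). Of all genes tested, 0.491% were called lower there. Tyrobp, the adaptor through which Trem1 signals, was -0.78 in combination against curcumin tumours (edgeR adjusted p = 0.030). Among the 7 tested partners of Slpi and Lcn2, 1 was called higher and 1 lower in combination against swimming tumours. Slc22a17, a receptor of Lcn2, was 1.92 higher and Wfdc2, a relative of Slpi, was -0.61 (edgeR adjusted p = 0.034 and 0.042). Of all genes tested, 3.5% were called higher there and 3.15% lower. Of 6 granulopoiesis factors none was called against control, with Cebpb at -0.89 in combination tumours (edgeR adjusted p = 0.095). Swimming tumours had 0.38 higher Runx1, -0.62 for Ncf1 and -1.74 for the elastase inhibitor gene Serpinb1a relative to curcumin tumours on the log2 scale (edgeR adjusted p = 0.046, 0.030 and 0.030).

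**Figure D4:**
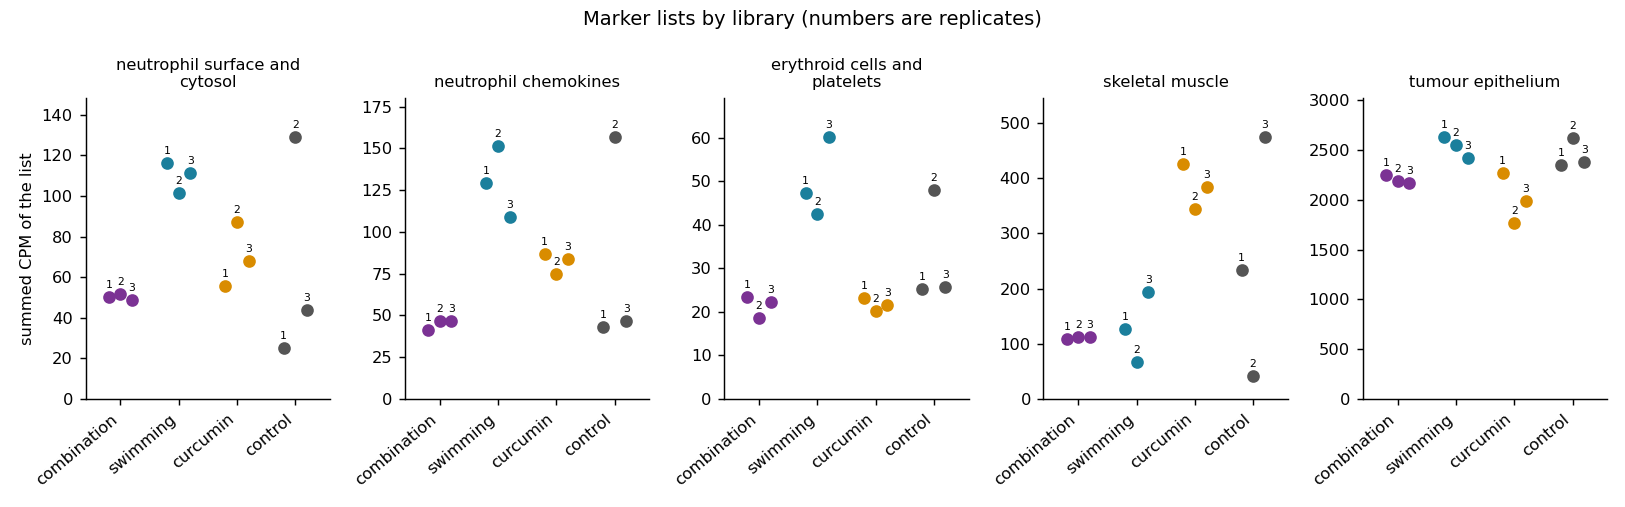
Summed CPM of 5 marker lists (neutrophil surface, neutrophil chemokines, erythroid and platelet, skeletal muscle, tumour epithelium) in each of the 12 libraries, by group; points are libraries. The neutrophil surface and chemokine lists are highest in control 2 and in swimming libraries, and the erythroid and platelet list lies at 42.6 to 60.2 CPM in swimming libraries.

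Lists of other cell types also differed between libraries. Macrophage genes summed to 1192 to 1240 CPM in combination tumours, 969.8 to 1610.0 CPM in swimming tumours, 1506 to 2675 CPM in curcumin tumours and 1373 to 2173 CPM in control tumours, so the combination libraries were below all curcumin and control libraries. Mertk, a macrophage receptor for dying cells, rose in swimming against control tumours at 0.86 (edgeR adjusted p = 0.041). It was the only one of the 10 macrophage genes called there. The other 9 were negative, and the median log2 fold change of the 10 was -0.425. In swimming against curcumin tumours, Fcgr1, an antibody receptor, was -0.92 (edgeR adjusted p = 0.036) and Ccr2, a chemokine receptor of monocytes, -1.47 (edgeR adjusted p = 0.046). Monocyte genes summed to 8383 to 9112 CPM in combination tumours and 11260 to 14810 CPM in swimming tumours. Curcumin tumours had 8845 to 10420 CPM and control tumours 10300 to 17190 CPM, highest in control 2. This sum was led by Fn1, with 2108633 counts over the 12 libraries against 17852 for F13a1, the next highest. In swimming against curcumin tumours Fn1 was 0.52 (edgeR adjusted p = 0.13), while the other 5 genes of the list were negative. Plac8 fell in combination against curcumin tumours at -0.97 (edgeR adjusted p = 0.037). Erythroid and platelet genes summed to 18.5 to 23.5 CPM in combination tumours, 42.6 to 60.2 CPM in swimming tumours, 20.3 to 23.2 CPM in curcumin tumours and 25.2 to 48.1 CPM in control tumours, where control 2 was again the highest. Of the 6 tested, 3 fell in combination against swimming tumours, against 3.15% of all genes tested: Hba-a1 at -1.65 (edgeR adjusted p = 0.048), Hbb-bs at -1.60 (0.039) and Pf4 at -1.09 (0.044). In the same comparison 5 of 6 endothelial genes rose, against 3.5% of all genes tested, among them Emcn at 1.62 and Tek at 1.97 (edgeR adjusted p = 0.0060 and 0.0081). Adipocyte genes, a sum led by Fabp4, came to 22.1 to 25.2 CPM in combination libraries and 6.42 to 14.2 CPM in all others. Proliferation genes summed to 1658 to 1727 CPM in combination libraries, against 455 to 1473 CPM in all others. Skin keratinocyte genes, a sum led by Krt14, came to 161 to 168 CPM in combination libraries, against 42.7 to 127 CPM in all others. Skeletal muscle genes summed to 42.1 CPM in control 2 and 66.6 to 474 CPM in the other libraries, and tumour epithelium genes to 1771 to 2629 CPM over the 12 libraries. Mitochondrial genes took 4.86% to 6.10% of counts in combination libraries, 4.36% to 4.87% in swimming, 3.34% to 4.06% in curcumin and 2.96% to 4.30% in control libraries, with control 2 the lowest. The part of these cell types, of blood in the samples, of cell division and of RNA quality in the results above was not tested.

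As a description, without a test because libraries of a group share their treatment, the genes outside the set with the most similar log2 CPM over the 12 libraries, among 12722 genes, were sought for 4 of the 10. For S100a8 they were Asprv1 (Pearson r = 0.966), Commd4 (0.958), Mgst2 (0.957), Trib3 (0.952) and Nub1 (0.946). For Slpi they were Unc13a (0.938), Ilvbl (0.929), Tep1 (0.926), Trib3 (0.918) and Bphl (0.915). For Trem1 they were Mertk (0.935), Trim6 (0.925), Zmym3 (0.913), Bnip1 (0.911) and Nrde2 (0.898), and for Csf3 they were Npepl1 (0.902), Ccdc58 (0.900), Sccpdh (0.897), H2bc8 (0.895) and Dync2i2 (0.895).

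In order of group means, combination tumours were lowest for 8 of the 10 genes, curcumin for Mmp8 and control for Trem1, and the highest mean fell in swimming tumours for 5 and in control tumours for 5. For S100a8, S100a9, Csf3, Csf3r, Padi4 and Slpi the combination libraries lay below all others and each of the other groups overlapped its neighbour in the order. For Retnlg, combination and curcumin each stood apart from the next group up, and swimming and control overlapped. For Trem1 the swimming libraries stood above the rest, whose neighbours overlapped. The biological coefficient of variation over genes was 6.47% in combination libraries, 16.3% in swimming, 12.4% in curcumin and 26.7% in control libraries, so the combination libraries were the most alike and the control libraries the most spread.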

How the data were processed

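The authors deposited 1 table of whole read counts and FPKM values for 21899 genes in 12 libraries. Per the labels' protocol, reads were aligned with HISAT2 2.0.5 to mm9 and counted with HTSeq 0.9.1; the submitters' processing notes list cutadapt, TopHat2, HISAT2, HTSeq 0.9.1, DESeq 1.30.0 and GRCm39, so the build is stated in 2 ways. The strand setting is not given in the sources used here. Deposited FPKM equalled count over length and library total for 184877 of 184877 values above 0 (relative tolerance 1e-05). No column of values was left unused (0 columns).

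The counts were analysed with edgeR 4.0.16 in R 4.3.3 (limma 3.58.1): TMM scaling, filterByExpr with a minimum count of 10 and a minimum total of 15, robust quasi-likelihood fits with 1 mean per group on all 12 libraries (8 residual degrees of freedom), and Benjamini-Hochberg adjustment over 13638 genes, called at 0.05. Log2 CPM used a prior count of 2. The standard error is the log2 fold change over the square root of F. Library totals of 15069348 to 17278826 reads set the counting precision. DESeq2 1.42.0, RLE scaling, other filters, the compared groups alone, a replicate block, the combination libraries summed into 1 sample, and fits without each library were alternatives. Fits without robust estimation were an alternative chosen after seeing the data. The procedure was tested on simulated data.

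The members and lists were chosen with earlier results of these data known. From the other lists, genes were named where called (at most 4 a list, by smallest p), else by smallest p against control. Ly6g, Mpo, Elane, Cxcr1, Cxcr2, Ngp, Cxcl3, Mmp9, Hp, Fn1, F13a1, Krt14, Stat3, Socs3 and Il17a were named after their values were seen. Replicate counts differed by more than sampling noise in every pair of libraries of a group (chi-square over degrees of freedom of 3.67 or more), so none was counted as a duplicate. Lists of other cell types and quality were summed per library. Some results of the pathway lists are not reported here.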

Additional observations from a re-analysis of the deposited data

Results flagged for a closer look

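For 4 of the 10 genes, every library moved one way from its comparison group's mean when 1 treatment was added to the other. Every library moved the opposite way when that treatment was added to corn oil. The share of all genes tested that do so was not counted, so the 4 are a description only. Slpi was the case that passed the test of the difference itself: combination against curcumin was -1.29 and swimming against control 0.34, a difference of -1.63 on the log2 scale (interaction, edgeR adjusted p = 0.0216). Csf3 gave -1.31 for the same difference, since every combination library lay below the curcumin mean and every swimming library above the control mean; the interaction missed the threshold (edgeR adjusted p = 0.093). S100a9 gave -2.44 in the same way (edgeR adjusted p = 0.41), with swimming libraries at 38.2 to 42.0 CPM above a control mean of 35.0 CPM that includes control 2 at 79.7 CPM. Trem1 gave -1.19 whether the effect of swimming was compared with and without curcumin or the effect of curcumin with and without swimming (edgeR adjusted p = 0.128). Groups of 3 libraries were not tested for single outlying libraries.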

How the results depend on the processing

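Counts of called genes among the 10 are given in the order combination against control, combination against swimming, combination against curcumin, swimming against control, swimming against curcumin and interaction, where the values reported were 4, 7, 1, 1, 0 and 1. DESeq2 called 7, 8, 5, 1, 1 and 3. Without the filter on low counts 3, 5, 1, 1, 0 and 1 were called. Fitting only the groups compared gave 2, 10, 7, 0 and 2, with no interaction possible. Summing the combination libraries into 1 sample gave 0 in all 6, and the log2 fold changes kept their direction. Leaving out 1 library gave 0 to 7, 1 to 9, 0 to 7, 0 to 3, 0 to 2 and 0 to 7. Curcumin against control gave 0 in each of these fits. Over all genes tested, calls were 663, 908, 116, 42, 243 and 34, by DESeq2 1656, 1886, 700, 318, 1032 and 217, in the groups compared alone 132, 2707, 2121, 0 and 659, with the libraries summed 0, 0, 0, 3, 10 and 0, and without 1 library 4 to 2182, 31 to 2697, 3 to 715, 0 to 603, 9 to 1537 and 0 to 455. Without robust estimation the interaction had 19. For curcumin against control DESeq2 called 87 genes, no filter 2 and leaving out 1 library 0 to 8. The causes were not tested.

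Replicate numbers are in the labels. Deviations of same-numbered libraries from their group means correlated at -0.251 to 0.165, with 2 of 18 above 0.1. Pairs with other numbers correlated at -0.189 to 0.228, with 2 of 36 above 0.1. No pairing by number was seen in this check over all genes, which cannot exclude one. With the replicate block, 3, 7, 1, 0, 0 and 1 of the 10 genes were called, and 220, 496, 28, 4, 57 and 11 of all genes (1 in curcumin against control). Under the block Retnlg and Lcn2 in swimming against control were 0.20 and 0.33, and Csf3r in swimming against curcumin was 0.080, each opposite in sign to the reported value.

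Some uncalled log2 fold changes also turned sign without 1 library. In swimming against control the ranges were -0.38 to 1.33 for S100a8, -0.23 to 1.67 for S100a9, -0.44 to 1.05 for Retnlg, -0.57 to 0.56 for Csf3r, -0.11 to 0.025 for Padi4, -0.54 to 1.97 for Lcn2 and -0.48 to 0.42 for Mmp8. In curcumin against control they were -0.95 to 0.88 for S100a8, -0.996 to 1.02 for S100a9, -0.0060 to 0.34 for Csf3, -0.66 to 0.64 for Csf3r, -0.23 to 0.060 for Slpi and -0.98 to 1.54 for Lcn2. Mmp8 in combination against curcumin was -0.28 to 0.52 and in the interaction -0.41 to 0.71, and Csf3r in swimming against curcumin -0.37 to 0.39. Counts of 6 to 23 reads for Retnlg and S100a8 in combination libraries, and 3 libraries a group, limit the precision of these values.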
